A study of Mus musculus with 12 samples.

Results

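The 37 genes described here encode markers of fibroblasts and the parts of the extracellular matrix that are not collagen, together with the enzymes that build, cross-link and degrade it. They were given as a list of symbols, and all 37 were found among the 55335 gene identifiers of the deposited counts. RNA was sequenced from CT26, a mouse line labelled as colorectal cancer and wild type, in 12 libraries that fall into 4 groups of 3. Cultured cells received the solvent DMSO or midostaurin, an inhibitor of several kinases, at 1 µM for 48 h. Tumors grown under the skin received vehicle or midostaurin at 40 mg/kg, from day 7 after inoculation and for 2 weeks. The strain, age and sex of the mice are not given in the sources used here, nor is it stated that replicates were separate cultures or animals. The p-values therefore rest on the spread among the deposited replicates, which may be technical. One treated tumor column carries the number 4, which no label has; it was used as a midostaurin tumor and is called midostaurin tumor 4.

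Fibroblasts are the main makers of connective tissue matrix. They secrete fibronectin, small proteoglycans such as decorin, and the fibrillins and elastin of elastic fibres. Lysyl oxidases then cross-link the fibres, matrix metalloproteinases cut them, and tissue inhibitors of metalloproteinases (TIMPs) hold those proteases in check. In a tumor this matrix can come from host fibroblasts that move in and from cancer cells that express mesenchymal genes. RNA of whole tumors cannot tell a larger number of cells of a type from more RNA per cell.

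Total counts lay between 34787389 and 38144039 in the cells and between 33399701 and 48109497 in the tumors. Levels are given as CPM, a gene's counts scaled to a library total shared by all 12 libraries, so that libraries of different depth can be compared. Of 10 markers of colorectal epithelium, 5 passed a filter on low counts in the cells and 3 had no count there. The 10 summed to between 39.9 and 83.1 CPM in the cell libraries. Epcam, Krt19 and Cldn7 had no count in the 6 cell libraries and Cdh1 reached at most 0.109 CPM, while Krt18 lay at 22.7 to 29.6 CPM and Krt20 at 9.67 to 53.2 CPM. Single tumors stood apart by other tissues: markers of skin keratinocytes summed to 850.3 CPM in vehicle tumor 2 and to between 1.52 and 1.78 CPM in the other 5 tumors, and red cell markers to 2010 CPM in vehicle tumor 1 against 16.8 to 453.7 CPM in the others.

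The cultured cells already expressed a large part of the list. A gene was called expressed in culture when it reached 1 CPM in each of the 6 cell libraries, which held for 15 of the 37. These were the fibroblast-associated genes Ly6a, S100a4, Pdpn, Twist1 and Prrx1, the proteoglycan genes Ogn, Bgn and Vcan, Fbln2 of the fibulins, the collagen chaperone gene Serpinh1, the adhesive and matricellular genes Fn1 and Sparc, and Mmp14, Timp1 and Timp2. Another 10 genes were under 1 CPM in every cell library and at 1 CPM or more in every tumor, and are called seen mainly in tumors: Fap, Dpt, Mfap5, Lox, Loxl1, Loxl2, Postn, Tnc, Mmp2 and Timp3. Of the remaining 12 genes, 11 were mixed (Pi16, Clec3b, Igf1, Dcn, Lum, Mfap2, Mfap4, Fbln1, Fbn1, Eln and Mmp3), and Fmod, which encodes the proteoglycan fibromodulin, stayed under 1 CPM in all 12 libraries.

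These classes describe levels and were not tested, and they move with the limit. Just inside it lay Vcan, with 1.11 CPM in DMSO cells 1, and Ogn, with 1.31 CPM in DMSO cells 3. Just outside lay Mfap5, with 0.929 CPM in midostaurin cells 1, and Igf1, with 1.19 and 1.21 CPM in the cell libraries numbered 1 and at most 0.332 CPM in the others. At a limit of 5 CPM the classes held 11 genes expressed in culture and 4 seen mainly in tumors (Bgn, Fbn1, Tnc and Timp3). At 0.5 CPM they held 15 and 8.

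**Figure D1:**
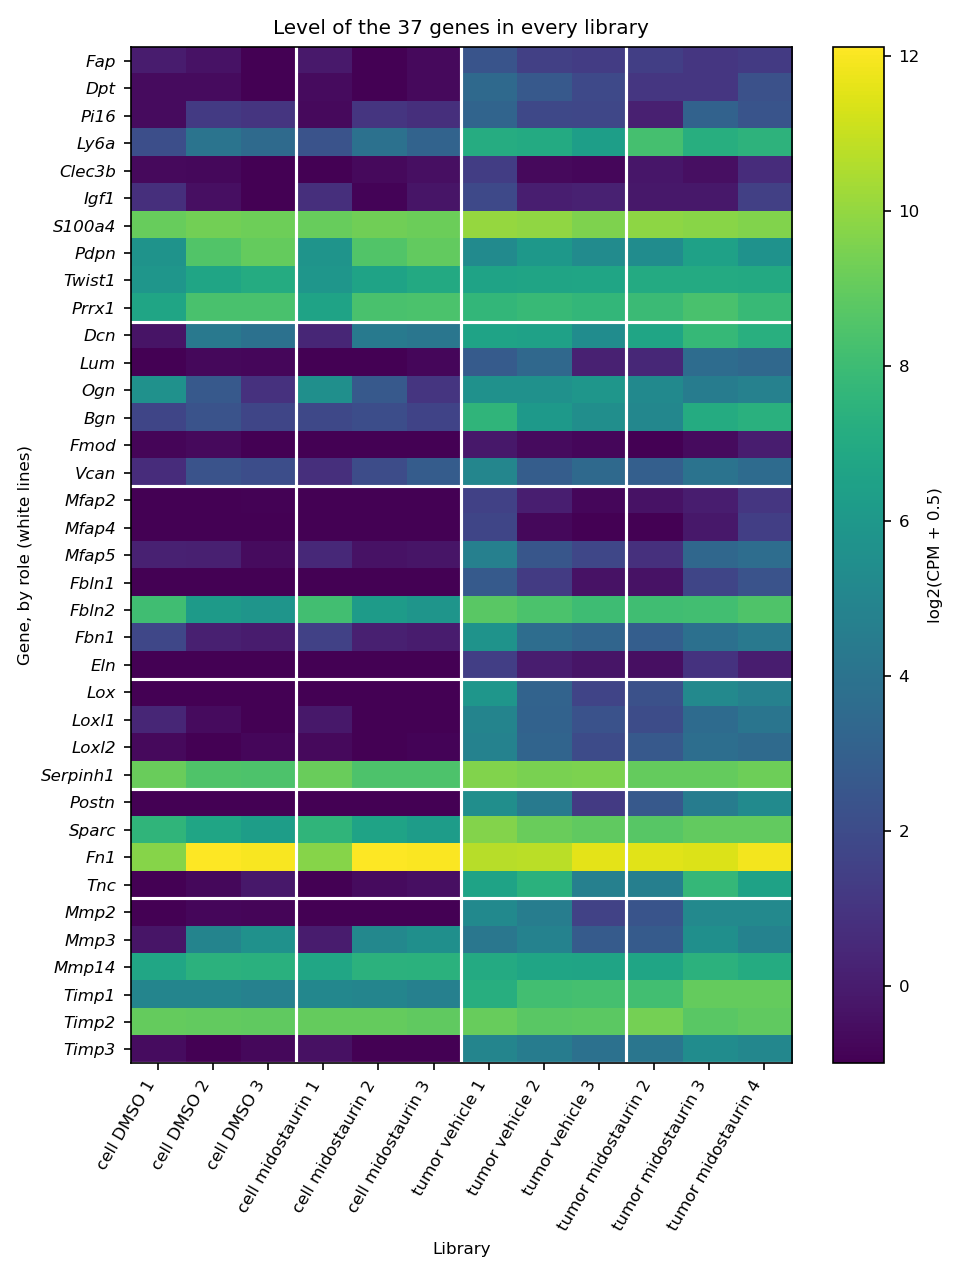
Level of each of the 37 genes (rows, ordered by role) in each of the 12 libraries (columns), coloured as log2(CPM + 0.5). S100a4, Fn1, Serpinh1 and Timp2 are bright in every library, while Lox, Postn, Tnc, Mmp2 and Timp3 are dark in all 6 cell libraries and bright in tumors.

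Per length of exon, the order of levels was led by genes that both cells and tumors expressed. In DMSO cells S100a4, a calcium-binding protein of motile cells, had a mean of 1012 CPM per kb of exon, followed by Fn1 (265.3), Serpinh1 (174.2), Pdpn (172.1) and Timp2 (128.9). In vehicle tumors the first 5 were S100a4 (1601), Serpinh1 (309.9), Timp1 (279.6), Fn1 (184.8) and Sparc (162.1), all as mean CPM per kb. Exons of a second gene on the same strand overlap S100a4, and the authors' counting could divide reads between them.

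Untreated tumors and untreated cells were compared first, in 1 fit of the 3 vehicle tumors and the 3 DMSO cell libraries. Of the 33 members that passed the filter on low counts, 21 were higher in vehicle tumors and 1 was lower (edgeR quasi-likelihood test, Benjamini-Hochberg adjusted p under 0.05). Among all 15899 genes tested, 22.2% were higher and 18.1% lower. Tissue, growth conditions and the 2 separately deposited tables cannot be told apart in this comparison. For a gene that passed the filter only through the tumors, the filter itself favored a higher call, and 82.3% of all such genes were called higher. Of the 21 higher members, 12 were of that kind: Fap, Dpt, Lum, Fbln1, Eln, Lox, Loxl1, Loxl2, Postn, Tnc, Mmp2 and Timp3. Their levels and fitted differences are given as a description, with no p. Of the 21 members that passed the filter in the cells as well, 9 were higher, 1 was lower and 11 were not called, and their median log2 difference was 1.48. Of the 14196 genes of that kind, 15% were higher and 20.2% lower, with a median of -0.06.

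The inhibitors of metalloproteinases differed among themselves. Timp1, a secreted inhibitor (chromosome X, 20870166 to 20874735 in mm10), measured 31.0, 30.6 and 26.4 CPM in DMSO cells and 150.1, 286.7 and 308.2 CPM in vehicle tumors. Every tumor lay above every cell library, by 3.07 ± 0.28 on the log2 scale (SE, edgeR, adjusted p = 0.000551), the smallest p among the members that passed the filter in the cells. Timp3, the inhibitor that binds to the matrix itself (chromosome 10, 86300372 to 86349506), had 0.177, 0 and 0.114 CPM in DMSO cells and 30.4, 22.3 and 14.2 CPM in vehicle tumors, a fitted log2 difference of 7.77 ± 0.68. It lies within Syn3, a gene on the opposite strand, and whether the counting used strand is not given in the sources used here. Timp2 was not called. It had 519.2, 505.8 and 481.3 CPM in DMSO cells and 533.8, 428.1 and 451.4 CPM in vehicle tumors, a log2 difference of -0.10 ± 0.12 (edgeR, adjusted p = 0.520).

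The 250 bases before the RefSeq start of both genes are shown because the 2 inhibitors differed in level in culture while every vehicle tumor lay above every DMSO cell library for both; the pair was picked after the values were known. They are on the plus strand of GRCm38.p6, at chrX:20869916-20870165 and chr10:86300162-86300411. All bases are in lower case because neither window holds the letters TGANTCA (the AP-1 motif) or TATAAA (the TATA box) on either strand.
Timp1: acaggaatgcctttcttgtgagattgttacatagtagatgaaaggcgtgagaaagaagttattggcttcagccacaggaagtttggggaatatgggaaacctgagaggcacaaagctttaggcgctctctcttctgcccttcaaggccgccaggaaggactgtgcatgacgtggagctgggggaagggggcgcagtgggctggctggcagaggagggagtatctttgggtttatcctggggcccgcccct
Timp3: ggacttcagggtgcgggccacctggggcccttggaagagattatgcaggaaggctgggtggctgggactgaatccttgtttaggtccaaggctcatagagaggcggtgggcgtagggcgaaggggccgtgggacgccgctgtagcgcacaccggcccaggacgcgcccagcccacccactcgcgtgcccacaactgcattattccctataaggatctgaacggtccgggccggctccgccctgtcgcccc
The Timp1 window holds 6 CpG dinucleotides and the Timp3 window 18, against a median of 6 over the 32851 promoters in the table.

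Of the proteoglycans and collagen-binding proteins that passed the filter in the cells, Bgn, Sparc and Vcan were higher in tumors, and Dcn and Ogn were not called. Bgn, which encodes biglycan, a small proteoglycan that binds collagen, had 2.86, 4.59 and 2.85 CPM in DMSO cells and 192.9, 67.0 and 44.6 CPM in vehicle tumors (log2 difference 4.88 ± 0.63, edgeR, adjusted p = 0.00176). Sparc, a matricellular protein that binds collagen, had 191.6, 105.4 and 79.5 CPM in DMSO cells and 813.6, 546.7 and 481.7 CPM in vehicle tumors (2.28 ± 0.37, edgeR, adjusted p = 0.00370). Dpt, which encodes the small matrix protein dermatopontin, had at most 0.163 CPM in DMSO cells and 10.5, 5.92 and 3.21 CPM in vehicle tumors (5.89 ± 0.84). For Bgn, Sparc and Dpt the groups did not overlap, and vehicle tumor 1 was the highest tumor. Vcan, the large proteoglycan versican, measured 1.11, 4.57 and 3.76 CPM in DMSO cells and 32.4, 6.79 and 10.6 CPM in vehicle tumors (2.39 ± 0.73, edgeR, adjusted p = 0.0388), a call that was lost in 7 of 12 other settings. Lum, the small proteoglycan lumican, had at most 0.109 CPM in DMSO cells and 6.29, 10.1 and 0.648 CPM in vehicle tumors (6.41 ± 1.27). Decorin and osteoglycin, from Dcn and Ogn, were at 2.74 ± 1.08 and 1.48 ± 1.07 (edgeR, adjusted p = 0.0843 and 0.306).

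Of the fibroblast-associated genes, Ly6a, which encodes the surface antigen Sca-1, measured 3.89, 16.0 and 11.3 CPM in DMSO cells and 137.9, 129.5 and 80.8 CPM in vehicle tumors (log2 difference 3.47 ± 0.52, edgeR, adjusted p = 0.00289). Ly6a belongs to a cluster of similar genes, so its counts depend on how shared reads were assigned. S100a4 was higher by 0.65 ± 0.15 (edgeR, adjusted p = 0.0146) from an already high 534.9, 648.2 and 590.0 CPM in DMSO cells to 1066, 969.8 and 769.7 CPM in vehicle tumors. Pdpn, which encodes the surface glycoprotein podoplanin, was the only member called lower: 52.0, 377.8 and 508.5 CPM in DMSO cells and 38.3, 64.2 and 39.8 CPM in vehicle tumors (-2.73 ± 0.76, edgeR, adjusted p = 0.0272). The Pdpn groups overlap, because DMSO cells 1 lay below vehicle tumor 2, and the call was lost in 8 of 12 other settings. Of the markers with low levels, Fap, a surface protease of activated fibroblasts, had at most 0.506 CPM in DMSO cells and 4.87, 2.27 and 2.06 CPM in vehicle tumors (3.52 ± 0.93). Pi16, a marker of resting fibroblasts, reached 1.88 CPM in DMSO cells and 8.80, 3.06 and 3.01 CPM in vehicle tumors, and was not called (2.04 ± 0.85, edgeR, adjusted p = 0.0977). The growth factor gene Igf1 was not called either, and Clec3b, which encodes tetranectin, had too few counts to be tested. Twist1 and Prrx1, transcription factors of mesenchymal cells, were not called, at 0.03 ± 0.28 and -0.25 ± 0.40 (edgeR, adjusted p = 0.944 and 0.643).

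The cross-linking group divided between the chaperone and the oxidases. Serpinh1, whose product HSP47 folds collagen inside the cell (chromosome 7, 99345376 to 99353239), measured 557.9, 364.9 and 353.6 CPM in DMSO cells and 802.9, 722.8 and 745.7 CPM in vehicle tumors (log2 difference 0.82 ± 0.19, edgeR, adjusted p = 0.0140). The lysyl oxidase gene Lox had no count in any cell library and 59.8, 8.55 and 2.75 CPM in vehicle tumors, which places the tumor mean at least 293-fold higher than the 0.0809 CPM that 3 counts per library would give. That limit rests on vehicle tumor 1: without it the mean was at least 69.8-fold higher, and the lowest tumor at least 34.0-fold. Loxl2 had at most 0.126 CPM in DMSO cells and 27.7, 8.93 and 3.45 CPM in vehicle tumors (7.48 ± 1.13). Loxl1 had at most 0.809 CPM in DMSO cells and 29.6, 8.33 and 4.44 CPM in vehicle tumors.

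The transcripts of periostin, tenascin and gelatinase A were absent or scarce in culture. Postn, the matricellular protein periostin, had no count in the cells and 44.8, 20.2 and 1.85 CPM in vehicle tumors, at least 275-fold higher as a mean, 136-fold without vehicle tumor 1 and 22.9-fold in the lowest tumor. Tnc, the adhesion-modulating glycoprotein tenascin C, had at most 0.398 CPM in DMSO cells and 96.0, 166.8 and 25.7 CPM in vehicle tumors (9.17 ± 1.09). Mmp2, which encodes gelatinase A, had at most 0.0815 CPM in DMSO cells and 37.2, 23.4 and 2.47 CPM in vehicle tumors (8.76 ± 1.35). Fn1, Mmp3 and Mmp14 were not called, at -0.53 ± 0.59, -0.61 ± 1.24 and -0.40 ± 0.20 (edgeR, adjusted p = 0.498, 0.719 and 0.145).

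Genes of elastic fibres were scarce in culture, with Fbln2 as the exception. Fbn1, the microfibril backbone fibrillin-1, had 2.96, 0.598 and 0.484 CPM in DMSO cells and 52.7, 12.4 and 9.16 CPM in vehicle tumors (4.18 ± 0.99, edgeR, adjusted p = 0.0159). Mfap5, a microfibril-associated glycoprotein, had at most 0.632 CPM in DMSO cells and 25.8, 5.17 and 2.94 CPM in vehicle tumors (4.57 ± 1.01, edgeR, adjusted p = 0.0121). Fbln1 and Eln, the genes of fibulin-1 and elastin, had no count in the cells, and vehicle tumors had 6.08, 1.89 and 0.278 CPM of Fbln1 and 2.18, 0.541 and 0.324 CPM of Eln. Their means were at least 34.0-fold and 12.5-fold higher than the floor of 3 counts, but at least 13.4-fold and 5.34-fold without vehicle tumor 1. Mfap4 was also without a count in the cells, but its vehicle tumor counts were 114, 4 and 0, so no fold is given. Mfap2 had 93, 21 and 4 counts in the vehicle tumors and 1 over the DMSO cells, a ratio of 110.0 after scaling with a 95% exact interval of 19.4 to 4380 that covers counting error only. Without vehicle tumor 1 the ratio was 34.7 (5.69 to 1430). Fbln2, by contrast, had 268.8, 70.4 and 56.9 CPM in DMSO cells and 425.6, 339.4 and 260.7 CPM in vehicle tumors (1.37 ± 0.59, edgeR, adjusted p = 0.108), and those groups overlap.

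**Figure D2:**
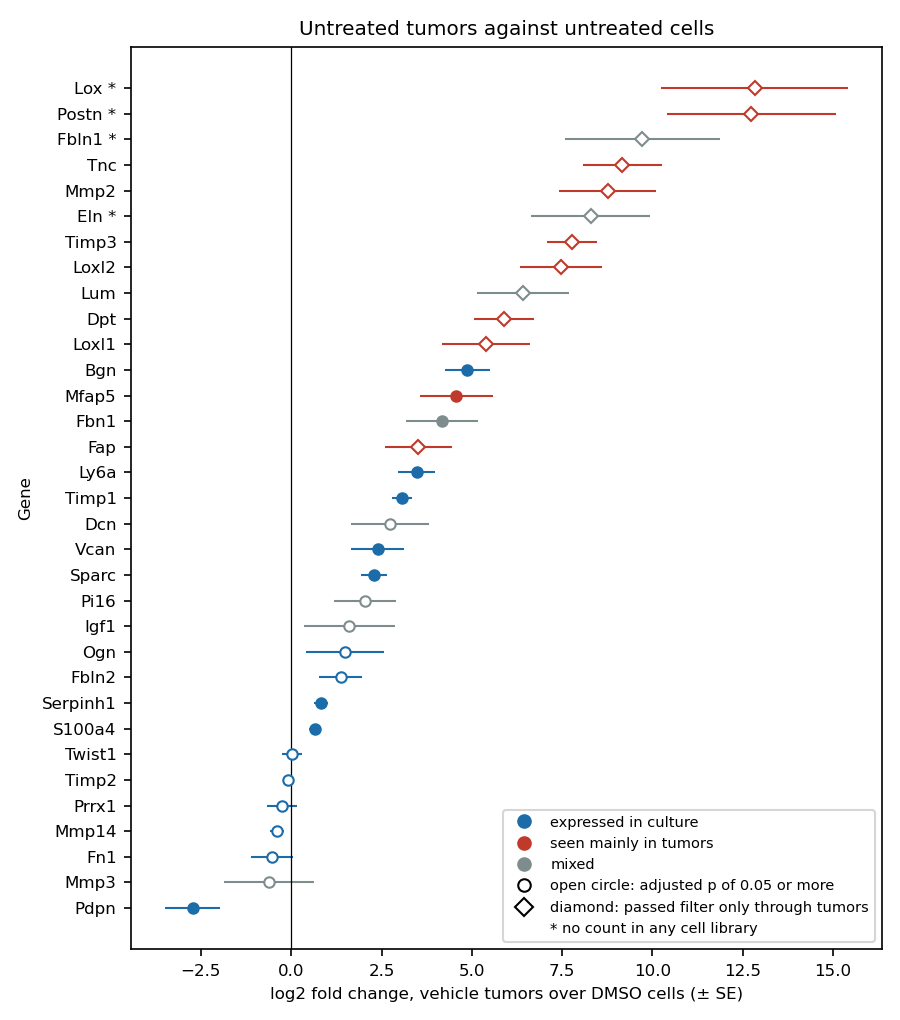
Log2 difference of vehicle tumors over DMSO cells with its SE (x axis) for the 33 members tested (y axis), coloured by class. Filled circles passed an adjusted p of 0.05 and open circles did not. The 12 diamonds passed the filter only through the tumors, which favored a higher value there. The starred genes had no count in any cell library, so that their fitted value is not a measured fold. Timp3, Tnc, Mmp2 and Loxl2 lie above 7, Timp2 and Twist1 lie near 0, and Pdpn is the only filled circle below 0.

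One cell library bears on several of these comparisons. In both treatments, the library numbered 1 stood apart from those numbered 2 and 3. Over the 21 members tested in cells, both libraries numbered 1 lay below all 4 others in 11 members and above all 4 in 8, and 2 overlapped. Replicate numbers carry no treatment, so this is a description without a test. Mmp3, the protease stromelysin-1, had 0.329 and 0.490 CPM in the libraries numbered 1 and 29.4 to 48.5 CPM in the other 4, a ratio of 96.1 between the means. Dcn, which encodes decorin (chromosome 10, 97479609 to 97518143), had 0.303 and 0.825 CPM against 14.2 to 20.3 CPM, a ratio of 31.5. Pdpn was 8.19 times, Fn1 5.01 times, Vcan 4.04 times and Prrx1 3.27 times as high in the libraries numbered 2 and 3.

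The opposite pattern was found in a set of matrix genes. Ogn, which encodes osteoglycin (chromosome 13, 49608046 to 49624501), had 49.1 and 46.1 CPM in the libraries numbered 1 and 1.31 to 5.87 CPM in the others, 13.1 times as high by the means. Igf1 was 7.95 times, Fbn1 4.90 times, Fbln2 4.25 times, Sparc 2.13 times and Serpinh1 1.57 times as high in the libraries numbered 1. Timp1 overlapped, at 31.0 and 33.3 CPM in the libraries numbered 1 and 26.1 to 31.3 CPM in the others.

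The promoters of Mmp3 and Ogn are shown, a choice made after the values were known. Among the 21 members tested in cells, these genes had the widest ratio in each direction between the cell libraries. Both windows are the 250 bases before the RefSeq start on the plus strand of GRCm38.p6, at chr9:7445572-7445821 and chr13:49607765-49608014. Capitals mark matches to TGANTCA or TATAAA on either strand.
Mmp3: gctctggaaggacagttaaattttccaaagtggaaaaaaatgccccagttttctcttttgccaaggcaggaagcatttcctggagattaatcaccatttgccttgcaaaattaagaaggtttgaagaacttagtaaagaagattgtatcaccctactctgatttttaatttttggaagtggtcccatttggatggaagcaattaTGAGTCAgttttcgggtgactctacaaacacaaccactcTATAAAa
Ogn: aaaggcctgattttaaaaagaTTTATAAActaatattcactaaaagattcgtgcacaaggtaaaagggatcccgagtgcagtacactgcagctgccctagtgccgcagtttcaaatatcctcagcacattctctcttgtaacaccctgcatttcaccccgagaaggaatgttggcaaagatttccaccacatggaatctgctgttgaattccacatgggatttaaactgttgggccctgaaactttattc
In Mmp3 a TGANTCA match begins 46 bases and a TATAAA match 7 bases before the start. In Ogn 2 TATAAA matches, 1 on each strand, overlap, and the nearer begins 227 bases before the start. TGANTCA occurs in 6.75% and TATAAA in 12.4% of all promoters of this length in the table. The same table held a promoter for 24 of the 37 members; among the 13 expressed in culture none had TGANTCA and 3 had TATAAA. These matches describe letters and no binding.

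**Figure D3:**
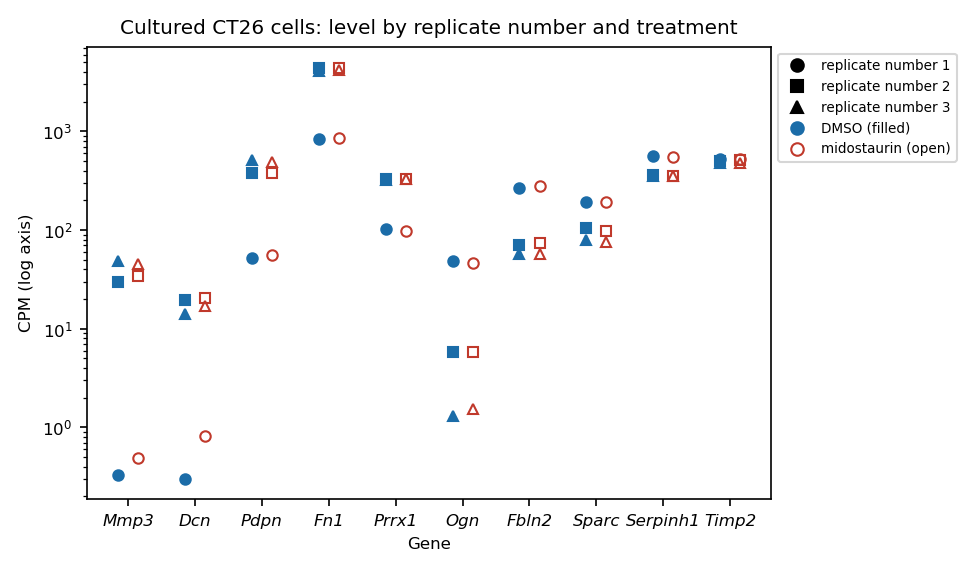
Level (CPM, log axis) of 10 members in the 6 libraries of cultured cells, with the replicate number as the symbol, DMSO filled and midostaurin open. The symbols of 1 number lie together whatever the treatment, and number 1 lies far below the others in Mmp3 and Dcn and above them in Ogn and Fbln2.

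Leaving out DMSO cells 1 gave the most called members of any fit of tumors against cells without 1 library, and kept all 22 calls. Without it, 29 members were called, 25 higher and 4 lower in vehicle tumors, while the share of all genes called in either direction went from 40.3% to 53.2%. Dcn (log2 difference 2.18), Ogn (3.88) and Fbln2 (2.43) then passed as higher. Mfap2, which had too few counts to be tested with all libraries, was also among the 25 (5.87). It had 0 and 1 counts in DMSO cells 2 and 3. It thus passed the filter only through the tumors, which favored a higher call. Prrx1 (-0.61), Fn1 (-0.97) and Mmp14 (-0.57) joined Pdpn (-3.22) as lower, by edgeR with adjusted p-values of 0.00184, 0.0235, 0.00655 and 0.000251 for the 4 lower genes. Without vehicle tumor 1, 19 members were called, all of them higher and all among the 22, with 28.5% of all genes called. The fewest, 16, were called without DMSO cells 2, with 28.2% of all genes.

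Midostaurin in culture was examined next. No member passed the test. Of the 37 members, 21 were tested and 0 were called by edgeR, as were 0% of the 14538 genes tested. DESeq2 and limma-voom also called 0 members. At an unadjusted p under 0.05 edgeR marked 0 members and 0.516% of all genes. No member had groups that did not overlap, against 2.46% of all genes. The libraries of 1 replicate number varied together. With that number as a block the count of called members was again 0, against 0.055% of all genes. At an unadjusted p under 0.05 there was 1 member, and the share of all genes there was not computed.

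The block narrows what the cell data allow. For the 15 members expressed in culture, the 95% intervals of the blocked log2 difference lay between -0.49 (Bgn, lower bound) and 0.72 (Vcan, upper bound). For the highly expressed genes they were narrow, with -0.06 to 0.01 for S100a4, -0.03 to 0.04 for Timp2 and -0.07 to 0.02 for Serpinh1. Fn1, which encodes fibronectin, had 841.4, 4349 and 4111 CPM with DMSO and 864.1, 4433 and 4186 CPM with midostaurin in libraries 1, 2 and 3. That is slightly more in each of the 3 numbered pairs, by 0.03 with an interval of 0.02 to 0.05, and an edgeR adjusted p of 0.538.

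Within the tumor groups, the genes seen mainly in tumors varied widely between single tumors. Summed over the 10 genes, vehicle tumors 1, 2 and 3 had 366.7, 271.9 and 63.1 CPM, and midostaurin tumors 2, 3 and 4 had 71.1, 382.5 and 271.1 CPM. Each group thus held both high and low tumors. The ratio of the highest to the lowest vehicle tumor had a median of 7.37 over the 10 genes (2.15 to 24.2), and among midostaurin tumors the median was 5.52 (1.37 to 9.82). The fitted drug difference had a median size of 1.33-fold in either direction. It compares group means, so it is not the same measure as a ratio of single tumors. Vehicle tumor 1 was the highest vehicle tumor in 9 of the 10 genes, with Tnc the exception, and vehicle tumor 3 was the lowest in 10 of 10. Midostaurin tumor 2 was the lowest treated tumor in 9 of 10, with Fap the exception.

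Single genes show the same arrangement. Lox had 4.20, 36.1 and 26.8 CPM in midostaurin tumors 2, 3 and 4, within the 2.75 to 59.8 CPM of the vehicle tumors. Postn had 5.80, 22.4 and 37.6 CPM, Mmp2 4.75, 35.1 and 35.5 CPM and Tnc 24.6, 210.0 and 92.4 CPM in the same 3 tumors. For all 4 genes the treated and vehicle tumors overlap. Timp3 was steadier, at 17.2, 41.7 and 32.6 CPM in midostaurin tumors against 14.2 to 30.4 CPM in vehicle tumors. The 15 genes expressed in culture varied less, with median ratios of highest to lowest of 1.63 in vehicle and 1.51 in midostaurin tumors and a median drug difference of 1.29-fold in either direction.

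**Figure D4:**
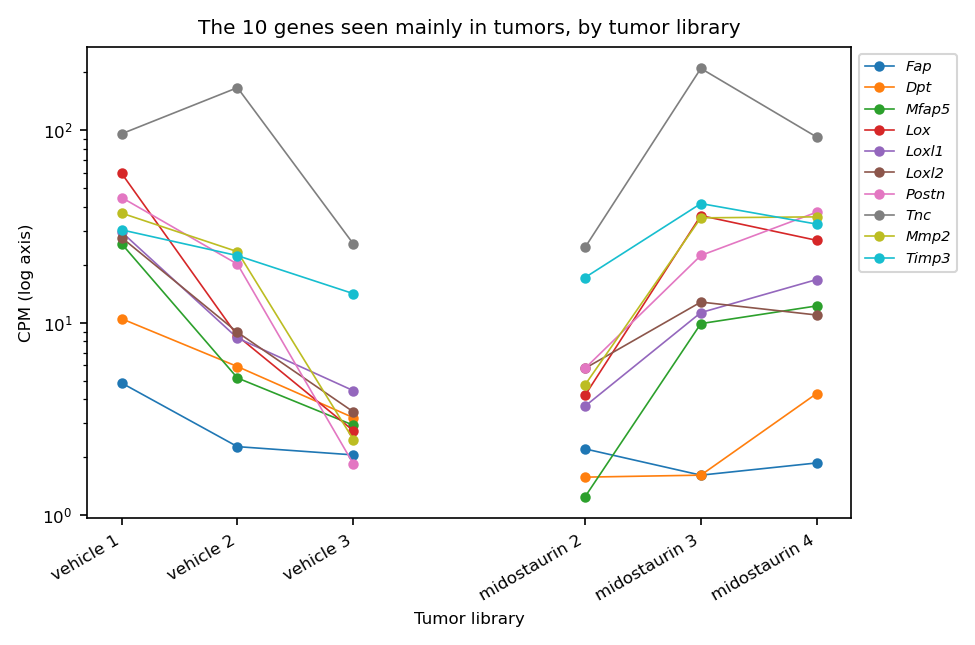
Level (CPM, log axis) of the 10 genes seen mainly in tumors in each tumor library; a line joins the values of 1 gene within a group, and the order of tumors has no meaning. Vehicle tumor 3 and midostaurin tumor 2 are low for most of the genes, and both groups span a similar range.

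Markers of other cell types varied across the same tumors. The 10 endothelial markers, all counted in tumors, summed to 174.7, 86.9 and 114.1 CPM in vehicle tumors 1 to 3 and to 73.8, 131.5 and 138.8 CPM in midostaurin tumors 2 to 4. The 12 markers of myofibroblasts, pericytes and smooth muscle summed to 181.5, 110.7 and 114.5 CPM and to 111.8, 139.3 and 128.2 CPM, with Cnn1 at 0 in the treated tumors. Vehicle tumor 1 was the highest and midostaurin tumor 2 among the lowest in these lists. The 10 macrophage markers ran from 943.3 to 1353 CPM in vehicle and from 356.9 to 834.0 CPM in midostaurin tumors, and the 10 collagen genes from 1948 to 5082 and from 1705 to 2900 CPM. The 7 neutrophil markers stood far higher in midostaurin tumor 3, at 686.1 CPM, than in any other tumor. The part of these lists in the levels of the matrix genes was not tested.

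Midostaurin in tumors left no member past the threshold. Of 36 members tested, 0 were called by edgeR, against 0.0435% of the 16094 genes tested, and limma-voom called 0. At an unadjusted p under 0.05 edgeR marked 7 members, against 19.9% of all genes. DESeq2 called 6 members, 4 higher (Timp1, Dcn, Twist1 and Ly6a) and 2 lower (Ogn and Serpinh1), against 5.43% and 3.56% of all genes. By level alone, 4 members were higher in all 3 midostaurin than in all 3 vehicle tumors (Twist1, Dcn, Ly6a and Prrx1), and 2 were lower (Serpinh1 and Ogn). The shares of all genes that did not overlap were 13.1% and 14.1%, and 4 and 2 of 36 members do not exceed them.

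Serpinh1 had the smallest p among the members. It measured 802.9, 722.8 and 745.7 CPM in vehicle tumors and 520.5, 513.5 and 603.8 CPM in midostaurin tumors, with every treated tumor below every vehicle tumor. The log2 difference was -0.46 ± 0.10 (edgeR, adjusted p = 0.0936; DESeq2, adjusted p = 0.000565). Ogn followed in the same direction, at 49.0, 49.7 and 58.8 CPM and at 37.3, 22.0 and 26.8 CPM, also without overlap (-0.86 ± 0.20, edgeR, adjusted p = 0.108; DESeq2, adjusted p = 0.00217). Dpt had the largest difference downward, at 10.5, 5.92 and 3.21 CPM and at 1.58, 1.61 and 4.29 CPM, with overlap (-1.37 ± 0.55, edgeR, adjusted p = 0.236; DESeq2, adjusted p = 0.0775).

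In the other direction, Twist1 was tight within each group. It had 97.5, 101.3 and 104.5 CPM in vehicle tumors and 128.3, 128.6 and 123.9 CPM in midostaurin tumors (log2 difference 0.34 ± 0.07, edgeR, adjusted p = 0.0936; DESeq2, adjusted p = 0.000879). Dcn had 98.2, 90.0 and 41.2 CPM in vehicle tumors and 103.5, 218.4 and 152.0 CPM in midostaurin tumors, with the lowest treated tumor just above the highest vehicle tumor (1.05 ± 0.37, edgeR, adjusted p = 0.192; DESeq2, adjusted p = 0.0220). Ly6a had 137.9, 129.5 and 80.8 CPM and then 298.5, 150.6 and 175.9 CPM (0.86 ± 0.30, edgeR, adjusted p = 0.192; DESeq2, adjusted p = 0.0306). Timp1 had 150.1, 286.7 and 308.2 CPM and then 281.6, 518.9 and 522.2 CPM, so that midostaurin tumor 2 lay among the vehicle tumors (0.83 ± 0.33, edgeR, adjusted p = 0.233; DESeq2, adjusted p = 0.0481).

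By role, the fitted differences had different signs, but no member was called. All 7 microfibril and elastic fibre genes had a log2 difference below 0, from -0.87 to -0.07, as did all 4 of the cross-linking and chaperone group. All 6 proteases and inhibitors had one above 0, from 0.17 to 0.83. Over all genes tested, 47.9% lay above 0 and 52.1% below. Mmp3, Mmp14, Timp1 and Timp3 were above 0 in each of the 12 other settings, but Mmp2 was below 0 in 3 of them (lowest value -0.26) and Timp2 in 1 (-0.04, without midostaurin tumor 2). Without vehicle tumor 1 the 7 microfibril genes and the 3 oxidases moved above 0. The 95% interval of Mfap4 ran from -4.38 to 4.03 and that of Lox from -2.76 to 2.61, on the log2 scale.

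The direction of the summary over the members was not stable. With all 6 tumors the members had a median log2 difference of -0.09, with 15 above 0 and 21 below, against a median of -0.01 over all genes. Without vehicle tumor 1 the members' median was 0.59, with 31 of 36 above 0, while the median over all genes was 0.01. The members' median was also above 0 without midostaurin tumor 2 (0.39) and with limma-voom (0.15), and it was lowest without vehicle tumor 3 (-0.37). With a replicate block it was 0.33. In that fit vehicle tumor 1 and midostaurin tumor 4 share their number with no other tumor. They therefore do not inform the drug difference, and the value is not independent of the fit without vehicle tumor 1. The 10 genes seen mainly in tumors had a median of -0.24 with all tumors, 0.75 without vehicle tumor 1, 0.20 without midostaurin tumor 2 and -0.71 without vehicle tumor 3. Lox went from -0.08 to 2.00 and Mfap4 from -0.17 to 4.02 when vehicle tumor 1 was left out. The 7 genes given above with an adjusted p for the drug in tumors kept their direction without it: Serpinh1 at -0.41, Ogn at -0.90, Dpt at -0.85, Twist1 at 0.32, Dcn at 1.28, Ly6a at 1.00 and Timp1 at 0.58. Without vehicle tumor 1, edgeR called 0 members.

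**Figure D5:**
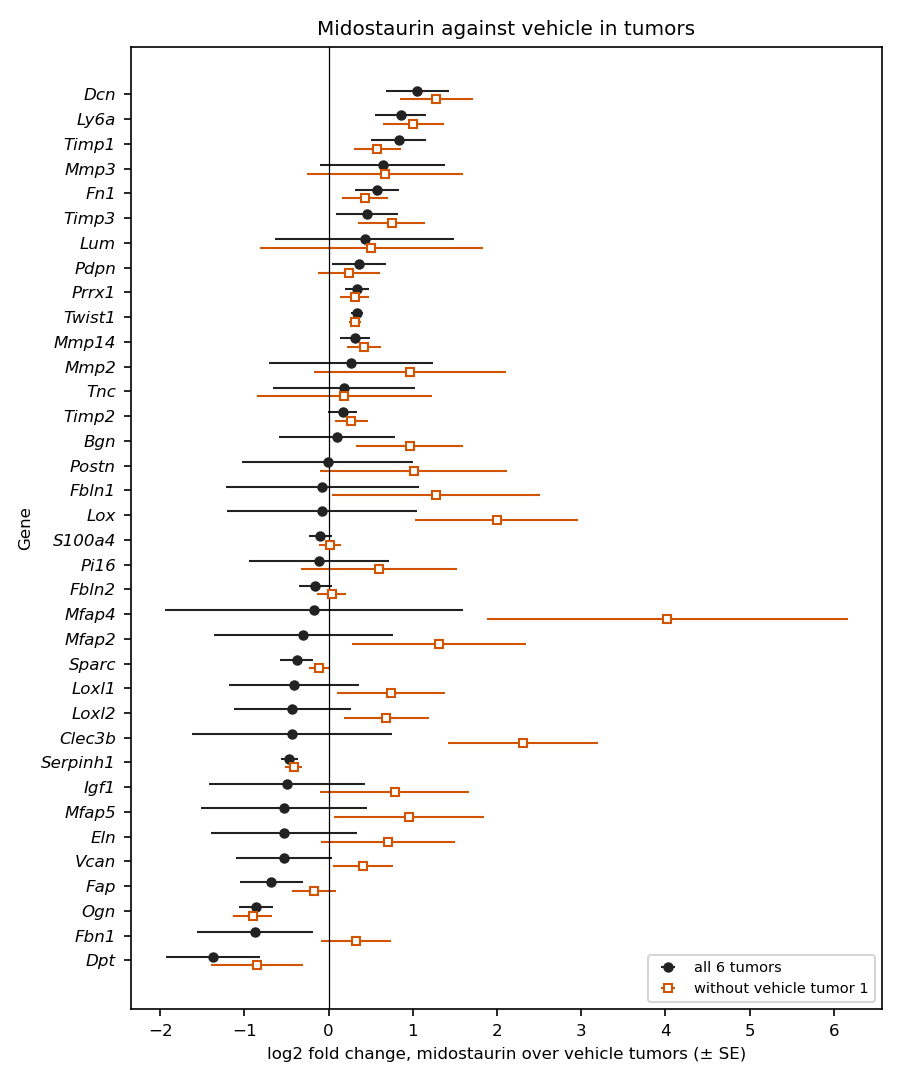
Log2 difference of midostaurin over vehicle tumors with its SE (x axis) for the 36 members tested (y axis), with all 6 tumors (filled) and without vehicle tumor 1 (open squares). Serpinh1, Ogn, Twist1 and Dcn keep their place, while Lox, Mfap4, Fbn1 and Clec3b move to the right of 0 when that tumor is left out.

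The drug differences in tumors and in cells were set against each other as an interaction over all 12 libraries. Of 36 members tested, 0 were called by edgeR, against 0.00589% of the 16965 genes tested. At an unadjusted p under 0.05 there were 0 members, against 6.08% of all genes. Only 21 members had passed the filter in the cells. Lox, Postn, Fbln1, Eln and Mfap4 had no count in any cell library, so this fit could not estimate their difference. DESeq2 and limma-voom also called 0 members. With the replicate number as a block within the cells, edgeR again called 0 members, against 0.0943% of all genes. In that fit 4 members had an unadjusted p under 0.05, so the absence of such members above holds only without the block. The share of all genes under that p in the blocked fit was not computed, so the 4 cannot be set against it. The smallest adjusted p was that of Timp1, whose tumor difference exceeded its cell difference by 0.79 ± 0.40 on the log2 scale (edgeR, adjusted p = 0.840). For Serpinh1 the difference was -0.45 ± 0.30 (edgeR, adjusted p = 0.890).

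Other genes of the same pathways give the setting. Of all genes that passed the filter in the cells, 15% were higher in vehicle tumors and 20.2% lower. Of all genes that passed it only through the tumors, 82.3% were higher. Between vehicle tumors and DMSO cells, 7 of 10 collagen genes were higher, 2 of which passed the filter only through the tumors, with Col6a1 at 3.28 ± 0.33 (edgeR, adjusted p = 0.000727). Col1a1, a chain of collagen I, was not called: it had 250.1, 43.8 and 40.4 CPM in DMSO cells and 1003, 212.2 and 127.2 CPM in vehicle tumors (2.00 ± 1.02, edgeR, adjusted p = 0.158). Of 9 other cross-linking and hydroxylating enzymes 8 were higher, 1 of them by that route, led by the transglutaminase gene Tgm2 (4.45 ± 0.23, edgeR, adjusted p = 0.000115) and Loxl3 (2.62 ± 0.15, edgeR, adjusted p = 0.000153). Of 16 other matrix glycoproteins and proteoglycans 8 were higher, 3 of them by that route. Of 14 other proteases and processing enzymes 4 were higher, 2 of them by that route, and 1 lower. Among the 12 of these enzymes that passed the filter in the cells 2 were higher, close to the share of all such genes.

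Signals known to act on fibroblasts were compared in the same way, against the same shares of all genes. Of 17 genes of TGF-beta signaling, a main inducer of matrix genes, 7 were higher, 1 of which passed the filter only through the tumors, and 2 lower in vehicle tumors. The ligand gene Tgfb1 was not called, at 49.7, 56.4 and 62.3 CPM in DMSO cells and 75.1, 56.6 and 82.7 CPM in vehicle tumors (0.34 ± 0.17, edgeR, adjusted p = 0.148), and Skil, an inhibitor of SMAD proteins, was lower by edgeR, at -1.27 ± 0.11 with an adjusted p of 0.000477. Of 6 PDGF ligands and receptors 3 were higher, 2 of them by that route. Pdgfra, a receptor that marks fibroblasts, had 15.3, 34.4 and 32.9 CPM in DMSO cells and 28.7, 31.7 and 23.3 CPM in vehicle tumors, a log2 difference of 0.01 ± 0.31 (edgeR, adjusted p = 0.987).

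Under midostaurin in tumors, 1 gene of these 6 pathway lists was called by edgeR. Thbs2, which encodes the matricellular protein thrombospondin-2, measured 126.0, 108.0 and 150.5 CPM in vehicle tumors and 587.8, 795.4 and 478.9 CPM in midostaurin tumors (log2 difference 2.28 ± 0.21, adjusted p = 0.0377). All 3 treated tumors lay above all 3 vehicle tumors. The log2 difference lay between 2.08 and 2.44 over 12 other settings, but the call was lost in 9 of them, including each fit without 1 tumor, with adjusted p-values up to 0.340. In culture the Thbs2 level followed the replicate number, at 39.6 and 40.4 CPM in the libraries numbered 1 and 317.7 to 388.0 CPM in the others. Smad7, a feedback inhibitor of TGF-beta signaling, had 29.0, 26.2 and 25.3 CPM in vehicle and 41.6, 47.2 and 45.7 CPM in midostaurin tumors (0.75 ± 0.09, edgeR, adjusted p = 0.0654). Ltbp2, which encodes a matrix protein related to the TGF-beta binding proteins, was at 1.28 ± 0.20 (edgeR, adjusted p = 0.0841), and Loxl3 at -0.54 ± 0.11 (edgeR, adjusted p = 0.0910). Col1a1 was at -0.85 ± 0.78, Pdgfra at 0.11 ± 0.34, Tgfb1 at 0.08 ± 0.16 and Acta2, the smooth muscle actin of myofibroblasts, at -0.87 ± 0.53 (edgeR, adjusted p = 0.592, 0.881, 0.820 and 0.408). In culture 0 genes of these 6 lists were called.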

How the data were processed

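The authors deposited whole-number counts per gene, 1 table for 6 cell libraries and 1 for 6 tumor libraries. Per the submitters' processing notes, FastQC 0.11.2, Bowtie2 2.3.4, RSEM and the mm10 genome were used; RSEM divides shared reads by estimate. The annotation and strand setting are not given in the sources used here. TRIzol RNA and directional poly(A) libraries (NEBNext) were used, per the labels.

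Symbols matched 99.7% of identifiers; positions are from GENCODE M21. Counts were tested with edgeR 4.0.16 (R 4.3.3): filterByExpr, TMM, quasi-likelihood F-test, and Benjamini-Hochberg adjustment over all genes tested, with a threshold of 0.05. Cells, tumors, vehicle tumors against DMSO cells, and all 12 libraries (interaction) were separate fits. They were also run on simulated counts without the replicate and tumor differences seen here, so that check gives no error rate for these data. DESeq2 1.42.0, limma-voom 3.58.1, other scaling, no filter, a replicate block and leaving out each library were alternatives. CPM used TMM factors over 12 libraries (0.964 to 1.04). Same-numbered cell libraries deviated together (correlations over genes of 0.903, 0.721 and 0.704), so the numbers pair them by the data, not the labels. The members, lists and promoters shown were chosen with earlier results of these data known. All 37 members are reported; values in full go to the 6 smallest p-values per comparison and up to 10 calls per direction. Of other lists, up to 2 genes with the smallest p per comparison are given with a test result. Col1a1, Pdgfra, Tgfb1 and Acta2 were always to be given. Other genes of these lists that are named by level only were chosen outside that rule.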

Additional observations from a re-analysis of the deposited data

How the results depend on the processing

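Leaving out 1 library at a time gave 16 to 29 called members in vehicle tumors against DMSO cells, where all libraries gave 22, with 27.7% to 53.2% of all genes called, against 40.3%. It gave 0 members for midostaurin in cells, in tumors and for their difference. The lowest count came without DMSO cells 2 and the highest without DMSO cells 1. DESeq2 called 23, limma-voom 22 and the fit without a filter 20, with 45.1%, 41% and 20.7% of all genes called. Of the 10 called members that passed the filter in the cells, 5 were called in all 12 settings (Ly6a, Bgn, Mfap5, Sparc and Timp1). For midostaurin in tumors DESeq2 called 6 members where edgeR called 0; the cause was not tested. At a limit of 5 CPM the class seen mainly in tumors held 4 genes in place of 10. With a replicate block, 21 members and 34.7% of all genes were called in vehicle tumors against DMSO cells. The block gave 0 called members in cells and 0 in tumors, where only the numbers 2 and 3 occur in both groups. Same-numbered libraries of tumors and cells correlated at -0.0574 to 0.0657, so those numbers do not pair samples, and midostaurin tumor 4 shares no number. In cells the block changed no member's call. For genes at a few counts in many libraries, such as Mfap4, Mfap2 and Clec3b, the values are imprecise.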

Other observations

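Fibroblast markers outside the 37 genes also divided between culture and tumor; those named here were chosen after their values were seen. CT26 cells in culture expressed Cd34, a surface sialomucin of progenitor and stromal cells, at 510.8 to 570.1 CPM, the actin-severing gene Gsn at 305.4 to 393.8 CPM and the mesenchymal factor Twist2 at 55.4 to 131.9 CPM. In tumors the same genes lay at 439.5 to 610.3, 292.6 to 427.5 and 44.7 to 66.2 CPM. Thy1, a surface glycoprotein of many fibroblasts, had no count in the 6 cell libraries and 18.1 to 38.7 CPM in the 6 tumors. Cxcl12, a chemokine made by stromal cells, also had no count in the cells, and measured 21.9, 6.49 and 3.47 CPM in vehicle tumors 1, 2 and 3 and 3.15, 21.3 and 15.4 CPM in midostaurin tumors 2, 3 and 4. Has2, Sfrp1 and Sfrp4 were without a count in the cells as well, and Tcf21 had none in any of the 12 libraries. Of the 16 markers in that list, 6 were without a count in every cell library, Tcf21 among them. Of all 55335 identifiers, 19637 to 20088 had a count in a single cell library, so a lack of counts is common.

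Inhba, which encodes a subunit of activin, followed the replicate number in culture, with 56.4 and 58.0 CPM in the libraries numbered 1 and 4.87 to 11.4 CPM in the others. In tumors it measured 21.2, 24.0 and 15.8 CPM with vehicle and 34.6, 84.0 and 56.8 CPM with midostaurin, without overlap and without passing the threshold (log2 difference 1.53 ± 0.32, edgeR, adjusted p = 0.0936).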
